A study of Mus musculus with 12 samples.

Results

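Voltage-gated potassium (Kv) channel subunits were taken as all genes whose symbol is Kcn followed by a, b, c, d, f, g, h, q, s or v and a number, with the table's transcript-level entries summed by gene name. The rule returned 40 genes in 10 subfamilies, of 55678 gene names in the table, and used no expression value. Of the 40, 30 encode pore-forming subunits and 10 encode modifier subunits.

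Kv channels open when a neuron depolarises and let potassium leave the cell, which ends the action potential and sets how soon and how often the next one can follow. Each channel is a tetramer: Shaker (Kcna), Shab (Kcnb), Shaw (Kcnc), Shal (Kcnd), ether-a-go-go (Kcnh) and Kcnq subunits form conducting channels of their own, whereas Kcnf, Kcng, Kcns and Kcnv subunits are electrically silent alone and alter Shab channels by joining them. In the cortex, Shaker channels line axons, Shab and Shal channels lie mainly on cell bodies and dendrites, Shaw channels serve fast-spiking interneurons, and Kcnq channels carry the M-current that damps repetitive firing.

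RNA was measured by sequencing in tissue punched from the medial prefrontal cortex of 12 mice aged 9 to 10 weeks, after behavioural testing. The 4 groups of 3 combined an inbred strain, either C57BL/6JmsSlc (called B6) or BALB/cCrSlc (called BALB/c), with chronic restraint stress (CRS, 6 h per day for 21 days) or handling without restraint (control). Libraries are named here by strain, treatment and the animal number in their titles: B6 control 2, 3 and 9, B6 CRS 12, 13 and 14, BALB/c control 5, 9 and 10, and BALB/c CRS 12, 13 and 15. Each library is 1 animal, sex, litter and batch are not in the labels, and the labels name no introduced allele.

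Levels are TPM, transcript abundances that correct for length and sum to 1000000 in each library. The number of reads behind a value is unknown, and how far a value can be trusted follows from the variation among the animals of a group. Differences are on the scale log2(TPM + 1), with the standard error (SE) and the Benjamini-Hochberg adjusted p of limma over all 16423 tested genes, and a gene is called at an adjusted p under 0.05. In bulk tissue, fewer cells of a type and less RNA per cell cannot be told apart.

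The labelled tissue was checked against marker lists. Summed excitatory cortical neuron markers (6 of 6 genes measured) ran from 1196 to 2477 TPM over the 12 libraries and none was at 0. Markers of striatal projection neurons (8 of 8 measured, none at 0), a cell type of the neighbouring striatum, summed to 205 to 2769 TPM in B6 controls, 867 to 2265 in B6 CRS, 110 to 365 in BALB/c controls and 131 to 178 in BALB/c CRS. Myelin genes (8 of 8, none at 0) summed to 2568 to 9850, 2789 to 7980, 485 to 3129 and 549 to 1475 TPM in the same order. All 8 striatal and all 8 myelin genes were called lower in BALB/c averaged over treatments, with median log2 differences of -2.38 and -2.25, so both contents move with strain.

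Kv transcripts were abundant and broadly spread over the subfamilies. The 40 genes together summed to 616 to 937 TPM per library, with means of 758 ± 157 in B6 controls, 678 ± 104 in B6 CRS, 733 ± 98.4 in BALB/c controls and 735 ± 95.6 in BALB/c CRS (SD, n = 3). These totals overlapped in all 4 groups. By level averaged over the 12 libraries, Kcnq genes held 19.5% of the total, Shaw genes 17.1%, ether-a-go-go genes 16.1% and Shaker genes 15.5%. The single Kcnf gene held 7.4%, Shal genes 7.33%, Kcnv genes 4.36%, Kcng genes 3.58% and Kcns genes 2.39%. Kcnh3 (61.3 TPM), Kcnf1 (53.7), Kcna6 (37.6), Kcnc1 (37.1) and Kcnc4 (32.8) were among the most abundant genes.

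Of the 40 genes, 33 reached 1 TPM in all 12 libraries and 20 averaged at least 10 TPM. Those tested numbered 35, since a gene needed 1 TPM in at least 3 libraries. Kcnq1, a cardiac and epithelial channel, passed with 3 libraries at 1 TPM (0.026 to 2.31 TPM over all 12), and the modifier Kcng3 passed with 6 (0.431 to 2.25 TPM). The 5 untested genes were Kcna7 (highest 0.042 TPM), Kcna10 (0.126), Kcnh8 (0.397), Kcnv2 (0.058), a photoreceptor modifier, and Kcng4 (1.47). Kcna10 was listed at 0 in 9 libraries and at 0.126, 0.084 and 0.089 TPM in B6 CRS 12, 13 and 14.

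**Figure D1:**
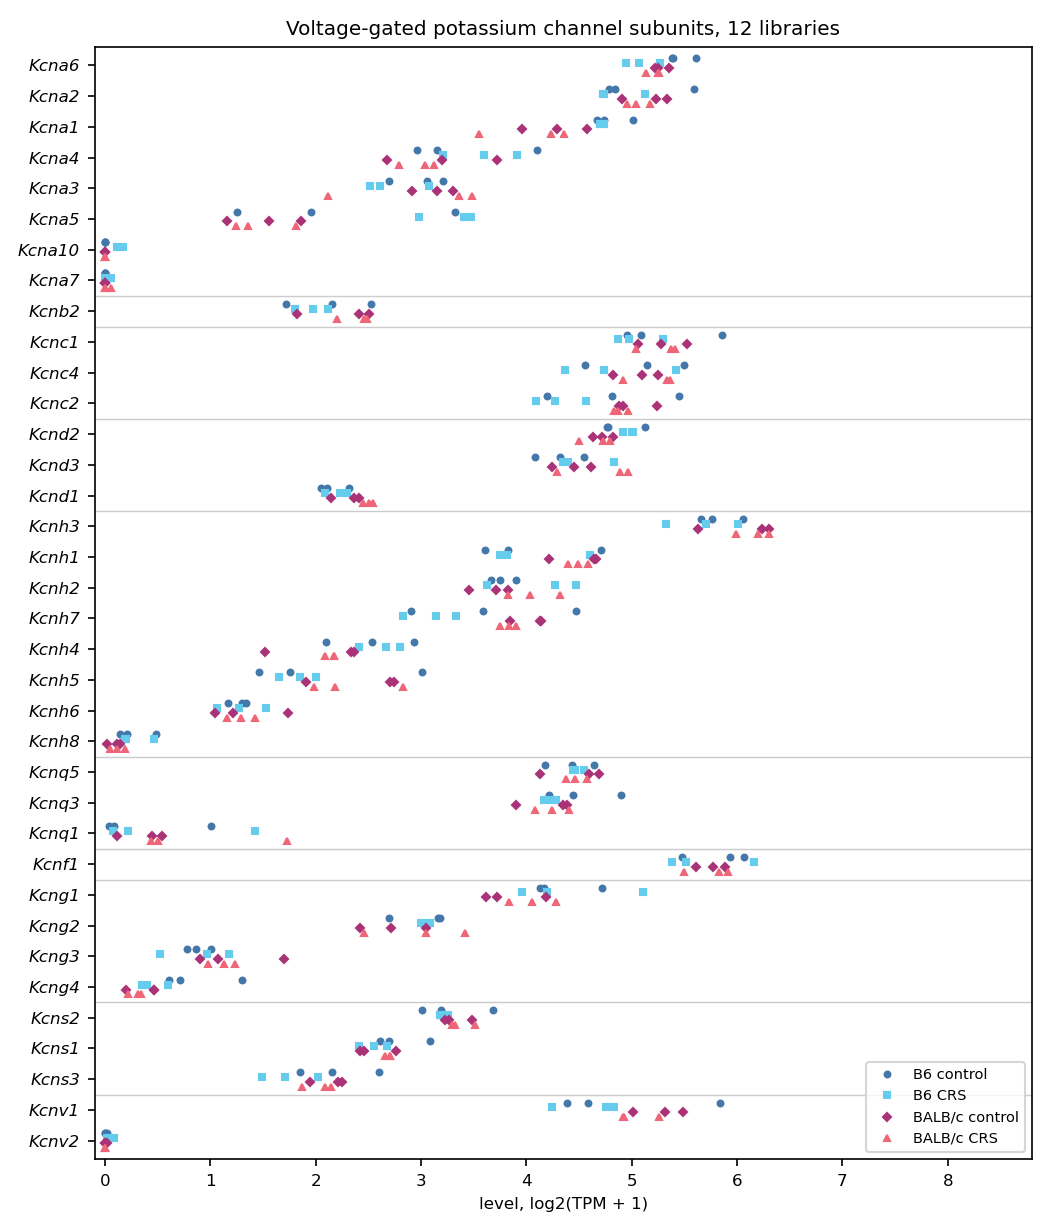
Level of 36 of the 40 Kv genes in each of the 12 libraries on the log2(TPM + 1) scale, grouped by subfamily with lines between subfamilies. Symbols mark the 4 groups of 3 animals. The groups lie on top of each other for most genes. Kcna1 shows B6 symbols to the right, and Kcna5 shows only the B6 CRS symbols and B6 control 2 there.

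Among the pore-forming subunits of the M-current, Kcnq5 and Kcnq3 averaged 21.2 and 19.0 TPM over the 12 libraries. Of the Shab genes, which carry delayed rectifiers, Kcnb2 averaged 3.62 TPM.

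The ether-a-go-go family was led by Kcnh3, a forebrain channel of the elk branch, at a mean of 61.3 TPM. Kcnh3 measured 49.5, 53.3 and 65.4 TPM in the B6 controls, 39.2, 51.3 and 63.4 in B6 CRS, 78.0, 48.5 and 74.4 in the BALB/c controls and 62.6, 77.8 and 72.6 in BALB/c CRS. The strains overlapped within each treatment, and the averaged strain difference was 0.36 (SE 0.14), with a limma adjusted p of 0.110. Kcnh1 of the eag branch averaged 19.0 TPM, Kcnh2 and Kcnh7 of the erg branch 14.3 and 12.3, and Kcnh4, Kcnh5 and Kcnh6 4.22, 3.80 and 1.47.

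Shaw genes encode fast channels that permit high firing rates. Kcnc1 measured 29.9, 33.1 and 57.1 TPM in the B6 controls, 30.4, 28.2 and 38.2 in B6 CRS, 44.9, 32.4 and 37.8 in the BALB/c controls and 31.9, 41.6 and 40.3 in BALB/c CRS. B6 control 9 was highest and the groups overlapped. Pvalb, the marker of fast-spiking interneurons, was at 68.8 TPM in that library and at 14.3 to 19.5 TPM in the other 5 B6 libraries; its part in the Kcnc levels was not tested. Kcnc4 and Kcnc2 averaged 32.8 and 27.0 TPM.

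Shal genes carry the transient A-type current of dendrites. Kcnd2 measured 33.8, 26.1 and 26.5 TPM in the B6 controls, 31.2, 31.0 and 29.3 in B6 CRS, 27.4, 25.2 and 23.8 in the BALB/c controls and 21.6, 26.7 and 25.6 in BALB/c CRS. BALB/c CRS lay below B6 CRS, the controls overlapped, and the averaged strain difference of -0.23 (SE 0.09) missed the threshold (limma adjusted p = 0.0882). Kcnd3 averaged 22.0 and Kcnd1 3.92 TPM.

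The modifier subunits were led by Kcnf1, at a mean of 53.7 TPM. Kcnf1 measured 43.7, 60.2 and 66.1 TPM in the B6 controls, 40.8, 44.8 and 70.5 in B6 CRS, 57.9, 47.9 and 53.6 in the BALB/c controls and 44.3, 59.3 and 55.9 in BALB/c CRS, with every pair of groups overlapping. The averaged strain difference was -0.01 (95% interval -0.33 to 0.31). Kcnv1 measured 19.9, 23.1 and 56.1 TPM in the B6 controls, 17.9, 26.0 and 27.4 in B6 CRS, 44.0, 31.3 and 38.7 in the BALB/c controls and 29.4, 37.2 and 29.1 in BALB/c CRS. Under CRS the BALB/c libraries all lay above the B6 libraries, and among controls B6 control 9 exceeded every BALB/c library.

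Kcng1 measured 16.5, 25.2 and 16.9 TPM in the B6 controls, 17.3, 14.5 and 33.4 in B6 CRS, 17.2, 11.3 and 12.2 in the BALB/c controls and 13.2, 15.6 and 18.5 in BALB/c CRS. The groups overlapped. Kcns2 measured 8.09, 7.06 and 11.8 TPM in the B6 controls, 8.58, 8.03 and 8.14 in B6 CRS, 8.64, 8.33 and 10.2 in the BALB/c controls and 9.03, 10.4 and 8.78 in BALB/c CRS. Here the CRS groups of the strains did not overlap and the controls did. Kcng2, Kcns1 and Kcns3 averaged 6.80, 5.30 and 3.14 TPM.

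Comparing the strains asks whether Kv transcription differs between B6 and BALB/c prefrontal tissue with and without stress. Few Kv genes were called. Kcna1 and Kcna5, both of the Shaker group, were lower in BALB/c averaged over treatments, which is 2 of 35 against 18.4% of all tested genes. Under CRS, Kcna5 alone was called, against 7.7% of all genes, and among controls no Kv gene was called by limma, against 4.73%.

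Without adjustment, a p under 0.05 was reached by 1 of 35 Kv genes in controls, 7 under CRS and 11 averaged over treatments, beside 3073, 3908 and 5259 of 16423 genes. The median log2 difference of the Kv genes was 0.03 in controls, 0.19 under CRS and 0.12 averaged, beside -0.10, -0.06 and -0.08 over all genes. The 27 pore-forming genes had an averaged median of 0.14 and the 8 modifiers 0.05. Kv genes above 0 numbered 18, 25 and 22 of 35, and 24, 28 and 26 with median-of-ratios scaling, which moves the median of all genes to 0.00.

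Counting groups that did not overlap gave 3 Kv genes in controls, where all genes gave 22.9%. Kcna1 and Kcna6 were among them, lower in every BALB/c control than in every B6 control. Under CRS it gave 12, where all genes gave 29.3%. Among them, Kcnb2, Kcnc2, Kcnd1, Kcnh7, Kcns2 and Kcnv1 were higher in every BALB/c CRS library. Lower were Kcna1, Kcna4, Kcna5, Kcnd2 and Kcnh4. With treatments joined, Kcna1 alone separated the 6 BALB/c from the 6 B6 libraries, where all genes gave 8.95%.

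**Figure D2:**
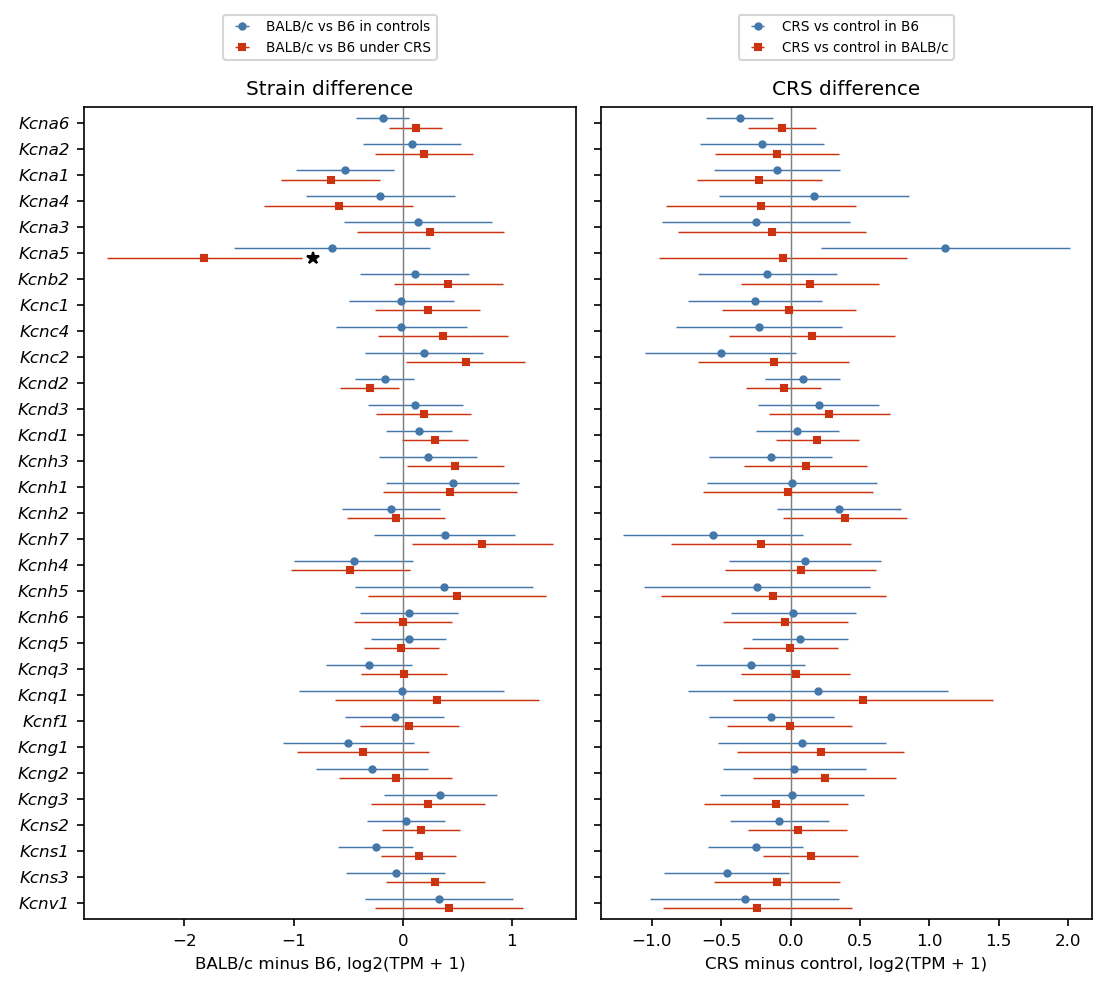
Differences of 31 of the 35 tested Kv genes on the log2(TPM + 1) scale with 95% intervals. The left panel shows BALB/c minus B6 in controls and under CRS, the right panel CRS minus control in each strain, and the star marks the single called difference, Kcna5 under CRS at -1.82.

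Kcna1 encodes an axonal Shaker subunit that opens at low voltage and joins Kcna2 beside the nodes of myelinated axons. Its level was 25.7, 24.4 and 31.2 TPM in the B6 controls, 24.9, 24.9 and 25.6 in B6 CRS, 18.6, 22.8 and 14.5 in the BALB/c controls and 10.7, 17.8 and 19.5 in BALB/c CRS. Every BALB/c library was below every B6 library. The averaged difference was -0.60 (SE 0.15, 95% interval -0.91 to -0.28, limma adjusted p = 0.0156), and the separate differences were -0.53 in controls (adjusted p = 0.190) and -0.66 under CRS (adjusted p = 0.0744).

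Its partner Kcna2 measured 26.5, 27.6 and 47.2 TPM in the B6 controls, 25.5, 25.6 and 33.8 in B6 CRS, 39.4, 28.9 and 36.6 in the BALB/c controls and 30.0, 35.1 and 31.8 in BALB/c CRS, with the strains overlapping. The ratio of Kcna1 to Kcna2 TPM ran from 0.662 to 0.977 in the B6 libraries and from 0.357 to 0.789 in the BALB/c libraries. These ranges overlapped through B6 control 9, B6 CRS 14 and BALB/c control 9. As a ratio within a library it shows unequal levels only.

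Kcna5 encodes the Shaker subunit known from the ultrarapid current of the atrium. It was lower in level than Kcna1, at 8.97, 2.87 and 1.38 TPM in the B6 controls, 10.1, 6.90 and 9.62 in B6 CRS, 2.63, 1.94 and 1.23 in the BALB/c controls and 1.56, 1.37 and 2.52 in BALB/c CRS. The 3 B6 CRS libraries and B6 control 2 stood high, all others were below 3 TPM, and the control groups overlapped. The difference under CRS was -1.82 (SE 0.41, 95% interval -2.71 to -0.92, limma adjusted p = 0.0214), that in controls -0.65 (SE 0.41, adjusted p = 0.441) and the average -1.23 (SE 0.29, 95% interval -1.87 to -0.60, adjusted p = 0.0129). The difference in controls was -0.08 without B6 control 2 (limma adjusted p = 0.938) and -1.11 without B6 control 9 (adjusted p = 0.0842). The strain differences in controls and under CRS were not shown to differ from each other (interaction -1.17, SE 0.58, limma adjusted p = 1.00).

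**Figure D3:**
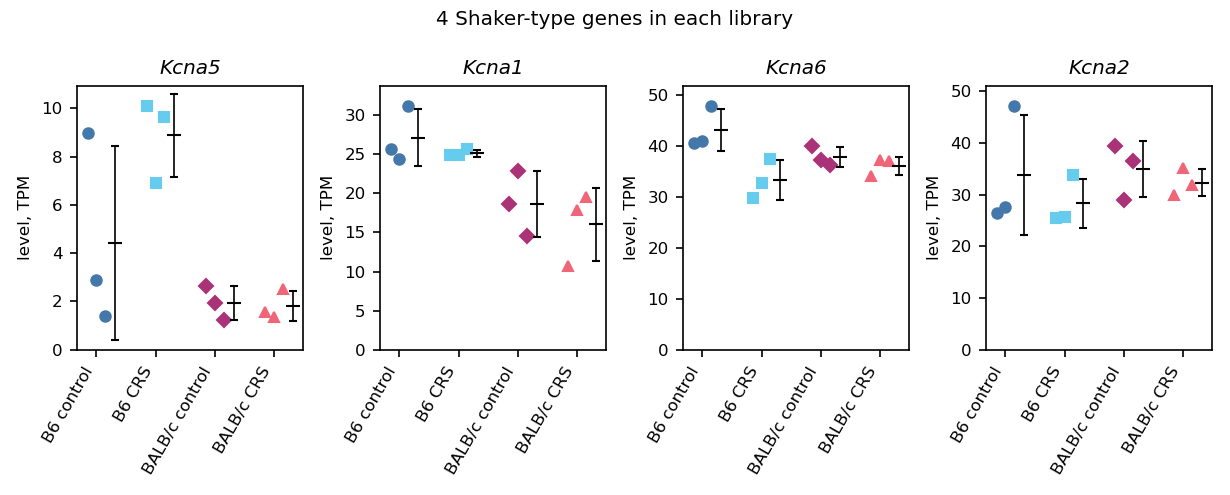
Levels in TPM of Kcna5, Kcna1, Kcna6 and Kcna2 in each library, with the group mean and SD (n = 3) beside the points; axes start at 0. Kcna5 is at 6.90 to 10.1 TPM in B6 CRS and at 1.23 to 2.63 TPM in all 6 BALB/c libraries, and Kcna2 overlaps across the strains.

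The marker content of the libraries was set beside both genes, and the libraries of high striatal content were those of high Kcna5. Scores are the mean log2(TPM + 1) of a marker list. The striatal score was 7.71, 5.12 and 3.71 in B6 control 2, 3 and 9, 7.37, 7.0 and 6.03 in B6 CRS 12, 13 and 14, and 3.34 to 4.78 in BALB/c. The 4 libraries with a score above 6 were the 4 with Kcna5 above 6 TPM. B6 control 9, with a score inside the BALB/c range, had Kcna5 at 1.38 TPM, inside the BALB/c range too. Within these sets the order did not follow the score. B6 CRS 14, lowest of the 4 in score, had 9.62 TPM, above B6 CRS 13 (6.90) and B6 control 2 (8.97). BALB/c control 9, with the highest BALB/c score (4.78), had 1.94 TPM, below BALB/c control 5 (score 3.59, 2.63 TPM). With the striatal score as a covariate the Kcna5 difference under CRS was -0.44 (limma adjusted p = 0.732), and with the myelin score it was -1.16 (adjusted p = 0.554). The striatal score was 6.03 to 7.37 in B6 CRS and 3.42 to 3.66 in BALB/c CRS. It separates the compared groups, so this fit cannot tell strain from striatal content.

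For Kcna1, B6 control 9, with the lowest striatal and myelin scores in B6 (3.71 and 7.44), had the highest level of all libraries. Within BALB/c, Kcna1 was highest in control 9 (22.8 TPM, myelin score 7.65). It was lowest there in CRS 12 (10.7 TPM, score 5.20) and control 10 (14.5 TPM, score 4.96). The averaged strain difference of Kcna1 was -0.59 with the striatal score (limma adjusted p = 0.257) and -0.27 with the myelin score (adjusted p = 0.824). The myelin score was 7.44 to 9.33 in B6 and 4.96 to 7.65 in BALB/c, so it nearly separates the strains, and strain and myelin content can hardly be told apart in these 12 animals. An alternative chosen after the data were seen left out the 3 libraries of highest striatal score, B6 control 2, B6 CRS 12 and B6 CRS 13. B6 CRS 14 then stood alone in its group and was assumed to vary like the other groups. Its striatal score of 6.03 was still above every BALB/c library (at most 4.78), so the striatal difference between the strains was not removed. The averaged difference was then -1.01 for Kcna5 and -0.63 for Kcna1. For Kcna5 the CRS part was -1.94 and rested on B6 CRS 14 (9.62 TPM) as the only B6 CRS library. For Kcna1 the difference was as large as with all 12 libraries but had fewer animals behind it. With 1 library in a group, only sizes are given for this fit, and it does not show that the Kcna1 call holds.

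**Figure D4:**
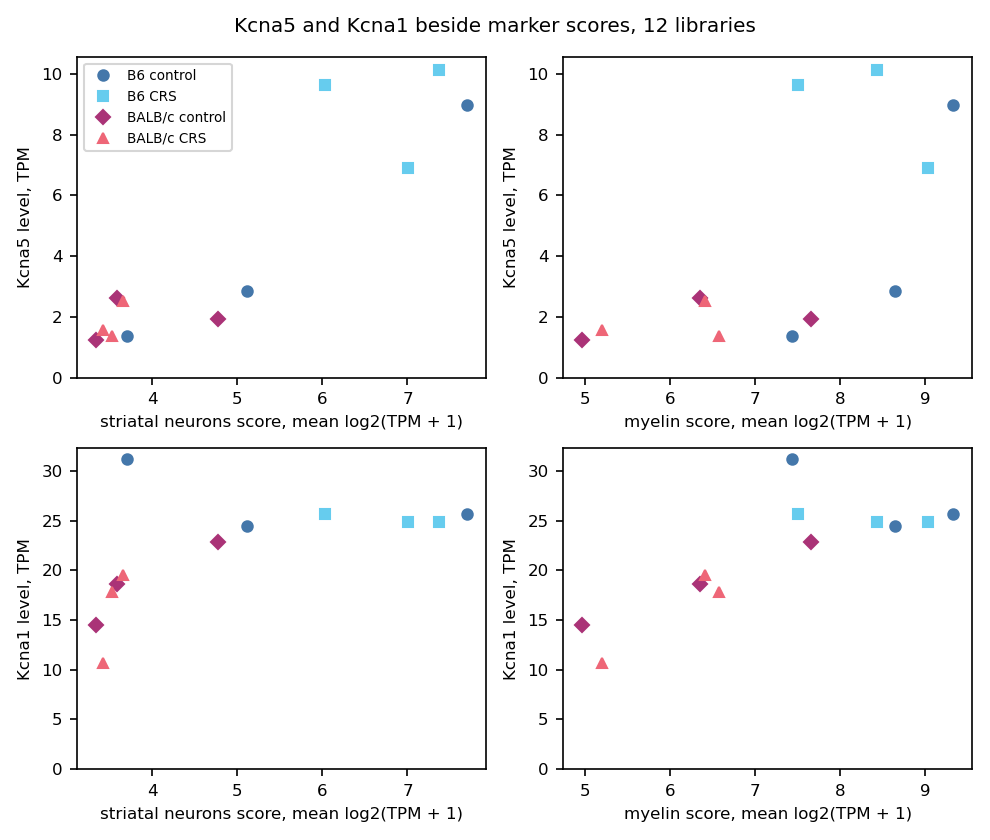
Levels in TPM of Kcna5 (top) and Kcna1 (bottom) against the striatal (left) and myelin (right) marker scores, 1 point per library. Kcna5 is above 6 TPM only at striatal scores of 6.03 and more, and the highest Kcna1 point, 31.2 TPM, lies at a striatal score of 3.71.

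The Kcna5 call under CRS was lost in some fits that left out 1 animal, though the difference stayed close to the -1.82 of all 12 libraries. These fits were without B6 CRS 12 (-1.72, limma adjusted p = 0.0836), B6 CRS 14 (-1.76, adjusted p = 0.0574), BALB/c CRS 12 (-1.76, adjusted p = 0.0796) or BALB/c CRS 13 (-1.70, adjusted p = 0.0729). In the same order, the share of all genes called under CRS fell from 7.7% to 3.28%, 5.6%, 3.69% and 4.08%. Both averaged calls held when any 1 library was left out.

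Kcna1 and Kcna5 are neighbours. In the GENCODE M21 annotation of GRCm38, Kcna5 spans chr6:126532551-126535412, Kcna1 chr6:126640397-126646384 and Kcna6 chr6:126708329-126740674, all on the minus strand, with gaps of 105.0 and 61.9 kb. Kcna6, an axonal Shaker subunit and the most abundant of its subfamily, was not called (averaged strain difference -0.03, 95% interval -0.20 to 0.14). Of 13 other tested genes within 1 Mb of these 3, 2 were called lower in BALB/c averaged over treatments (15.4%, beside 18.4% of all genes): Vwf, the clotting factor of endothelium, at -0.67 and the cyclin Ccnd2 at -0.66.

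The start regions of Kcna5, which was called, and Kcna6, which was not, are shown for comparison, as RefSeq gives them on GRCm38.p6 from 250 bases before to 50 bases after the start (minus strand, 5′ to 3′). Kcna5 lies at chr6:126535506-126535805 and Kcna6 at chr6:126740625-126740924. The Kcna5 window lies wholly upstream of the GENCODE M21 gene, whose start is at 126535412, so RefSeq and GENCODE place this start differently. The Kcna6 window reaches into its GENCODE gene. Capitals mark the half-site of the cyclic AMP response element (TGACG, here on the reverse strand).
Kcna5: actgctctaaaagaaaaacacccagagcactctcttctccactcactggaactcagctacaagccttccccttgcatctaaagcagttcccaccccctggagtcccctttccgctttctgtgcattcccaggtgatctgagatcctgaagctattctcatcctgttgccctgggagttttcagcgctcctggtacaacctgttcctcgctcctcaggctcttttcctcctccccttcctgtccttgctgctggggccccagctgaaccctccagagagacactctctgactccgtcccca
Kcna6: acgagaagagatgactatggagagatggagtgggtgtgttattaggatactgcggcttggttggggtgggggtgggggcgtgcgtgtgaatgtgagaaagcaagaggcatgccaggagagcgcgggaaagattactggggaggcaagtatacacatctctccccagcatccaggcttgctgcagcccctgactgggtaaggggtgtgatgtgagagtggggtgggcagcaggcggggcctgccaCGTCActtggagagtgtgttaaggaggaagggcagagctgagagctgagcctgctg

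The Kcna5 window has a GC content of 55.0% with 4 CpG, the Kcna6 window 58.3% with 8. Of the 40 Kv genes, 25 had a RefSeq window, with a median GC content of 66% and a median of 20.5 CpG, beside 52.7% and 7 over all 32851 windows, and 24 of the 25 genes were above the median of all windows in GC. Motifs were counted on both strands with overlaps allowed. The half-site TGACG was in 7 of the 25 genes and 20.8% of all windows, the Sp-type box GGGCGG in 17 and 35.7%, the E-box CACGTG in 1 (Kcnh4) and 7.15%, the steroid receptor half-site AGAACA in 1 (Kcnc2) and 19.0%, and TATAAA in 0 and 13.6%. Kcna5 held none of these 5 words in its window.

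Comparing CRS with control asks whether 21 days of restraint changed Kv transcripts. No Kv gene was called by limma in B6, in BALB/c or averaged over strains. Over all 16423 genes, limma called 0% in B6 (0 genes), 0.00609% in BALB/c (1 gene) and 0.00609% averaged over strains (1 gene). At an unadjusted p under 0.05 there were 3, 0 and 2 Kv genes, beside 792, 497 and 849 of all genes.

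The median CRS difference of the 35 Kv genes was -0.10 in B6 and -0.01 in BALB/c, beside 0.00 and 0.05 over all genes. In BALB/c, the 95% interval lay within a 2-fold change either way for 34 of 35 genes, all but Kcnq1. In B6 this held for 29 of 35, the exceptions being Kcna5, Kcnc2, Kcnh5, Kcnh7, Kcnq1 and Kcnv1. Averaged over strains it held for 33. For Kcnh3 the interval was -0.59 to 0.30 in B6 and -0.34 to 0.55 in BALB/c.

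The Kv gene of lowest unadjusted p was Kcna6 in B6. Its levels were 40.6, 40.9 and 47.9 TPM in the B6 controls, 29.7, 32.6 and 37.5 in B6 CRS, 40.0, 37.1 and 36.2 in the BALB/c controls and 34.1, 37.3 and 37.0 in BALB/c CRS. The B6 groups did not overlap, with all 3 stressed animals below the controls, and the BALB/c groups did. The difference was -0.37 in B6 (SE 0.11, unadjusted p = 0.00643, limma adjusted p = 1.00) and -0.06 in BALB/c, and their difference was 0.30 (SE 0.16, adjusted p = 1.00). It was the only Kv gene of 35 whose B6 groups did not overlap, where all genes gave 8.33%. A gene on the other strand, Gm26673, overlaps Kcna6, as other-strand genes do for 15 of the 40 Kv genes, though not for Kcna1 or Kcna5, and whether strand was used in quantification is not given in the sources used here.

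Kcna5, with the B6 values above, differed by 1.12 between CRS and control in B6 (SE 0.41, 95% interval 0.22 to 2.01, unadjusted p = 0.0188, limma adjusted p = 1.00) and by -0.05 in BALB/c. The B6 difference was 1.69 without B6 control 2 (limma adjusted p = 0.0588) and 0.65 without B6 control 9 (adjusted p = 1.00). All 8 striatal markers were above 0 in the same B6 contrast, with a median of 1.21, but none had an unadjusted p under 0.05 by limma. Their part in the Kcna5 difference was not tested.

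Kcnh2, the erg channel of cardiac repolarisation, measured 14.0, 11.7 and 12.5 TPM in the B6 controls, 18.3, 11.3 and 21.1 in B6 CRS, 13.2, 9.99 and 12.1 in the BALB/c controls and 13.2, 15.3 and 18.9 in BALB/c CRS. In each strain 2 of 3 stressed animals were above all controls, and the groups overlapped. The difference was 0.35 in B6, 0.39 in BALB/c and 0.37 averaged (SE 0.15, unadjusted p = 0.0259, limma adjusted p = 0.946). Kcns3, a modifier found in fast-spiking interneurons, measured 2.59, 3.45 and 5.04 TPM in the B6 controls, 1.80, 3.05 and 2.26 in B6 CRS, 3.62, 2.84 and 3.76 in the BALB/c controls and 3.24, 3.42 and 2.66 in BALB/c CRS. Both strains overlapped between treatments, and the B6 difference was -0.46 (SE 0.21, limma adjusted p = 1.00).

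In BALB/c, the groups did not overlap for 2 Kv genes, Kcnd1 among them, where all genes gave 7.39%. Kcnd1, the least abundant Shal gene, measured 3.99, 3.13 and 3.3 TPM in the B6 controls, 3.68, 3.25 and 3.90 in B6 CRS, 4.30, 3.42 and 4.16 in the BALB/c controls and 4.45, 4.67 and 4.83 in BALB/c CRS. The 3 stressed BALB/c animals had the highest Kcnd1 of all 12, and the difference in BALB/c was 0.19 (SE 0.14, limma adjusted p = 1.00). The Kv genes of lowest p in the other direction in BALB/c were Kcna1 (-0.23) and Kcnv1 (-0.24), both with an adjusted p of 1.00 by limma.

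The interaction, which asks whether the CRS difference depends on strain, called no Kv gene and 0% of all genes by limma (0 Kv genes and 443 of all genes at an unadjusted p under 0.05). The 2 Kv genes of lowest p above 0 were Kcna6, given above, and Kcns1 (0.39, SE 0.22), and the 2 below 0 were Kcna5, given above, and Kcna4 (-0.38, SE 0.44). The modifier Kcns1 measured 5.09, 5.46 and 7.49 TPM in the B6 controls, 4.85, 5.37 and 4.32 in B6 CRS, 5.77, 4.50 and 4.35 in the BALB/c controls and 5.30, 5.51 and 5.54 in BALB/c CRS, and every pair of groups overlapped.

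The A-type Shaker gene Kcna4 measured 16.2, 6.79 and 7.88 TPM in the B6 controls, 14.0, 11.1 and 8.27 in B6 CRS, 12.2, 5.41 and 8.15 in the BALB/c controls and 5.93, 7.72 and 7.22 in BALB/c CRS. Within each strain the treatments overlapped. The 95% intervals of the interaction lay within a 2-fold change for 23 of 35 Kv genes.

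Much of the spread of Kv genes lay between animals of 1 group. Among the 6 B6 libraries, control 9 was the highest for 22 of 35 Kv genes (62.9%, beside 28.8% of all genes), and CRS 12 was the lowest for 11 (31.4%, beside 18.6%). Among the 6 BALB/c libraries, control 5 was highest for 16 (45.7%, beside 19.3%) and control 9 lowest for 20 (57.1%, beside 26.8%). Kcna5 ran the other way in B6, lowest in control 9 and highest in CRS 12, and Kcna4, Kcnd1, Kcnd2 and Kcnh4 were highest in B6 control 2. In the B6 controls the median SD of a Kv gene was 0.35 on the log2 scale, beside 0.20 over all genes, while in BALB/c CRS it was 0.16 beside 0.19.

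B6 control 9 bears on the strain comparison. It had the highest excitatory marker score of all libraries (6.87), the highest Pvalb and the lowest striatal score in B6. Without it, the erg gene Kcnh7 (6.48, 11.0 and 21.2 TPM in the B6 controls, 6.09, 7.82 and 9.03 in B6 CRS, 16.6, 13.4 and 16.5 in the BALB/c controls and 13.3, 13.9 and 12.4 in BALB/c CRS) was called higher in BALB/c controls by 0.79 (SE 0.21, limma adjusted p = 0.0402) and under CRS by 0.73 (SE 0.19, adjusted p = 0.0297). Kcnv1 was then called in controls by 0.78 (SE 0.20, limma adjusted p = 0.0355). Averaged over treatments, 7 of 35 Kv genes were then called in place of 2, beside 23.1% of all genes in that fit (8.39% in controls and 11.1% under CRS), with Kcnc2, Kcnh1, Kcnh5, Kcnh7 and Kcnv1 higher in BALB/c.

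**Figure D5:**
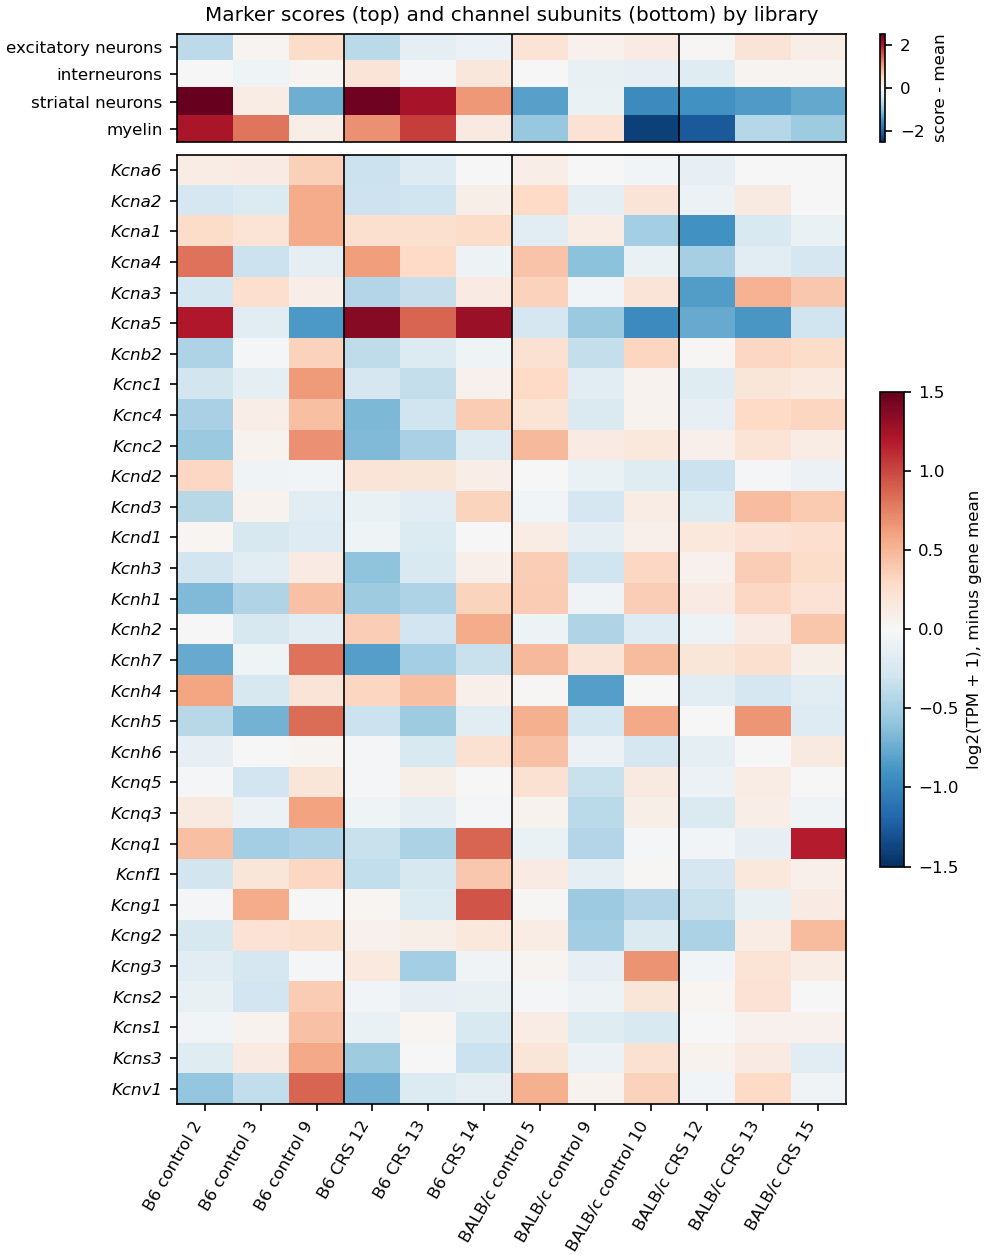
Marker scores (top, score minus its mean over the 12 libraries) and 31 of the 35 tested Kv genes (bottom, log2(TPM + 1) minus the gene's mean) in each library. B6 control 9 is the highest B6 library for 22 of all 35 tested genes, and Kcna5 is high in the 4 B6 libraries whose striatal scores exceed 6.

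Auxiliary subunits bind Kv channels in the cytoplasm or membrane and set their speed and traffic. Of 16 listed, 11 were tested and 1 was called (9.09%, beside 18.4% of all genes averaged over treatments and 7.7% under CRS), Kcne1l, a single-span membrane subunit. It measured 6.12, 3.02 and 2.57 TPM in the B6 controls, 5.70, 4.33 and 7.52 in B6 CRS, 2.10, 3.15 and 2.87 in the BALB/c controls and 2.04, 2.15 and 2.64 in BALB/c CRS. The CRS groups did not overlap and the controls did. The 4 libraries above 4 TPM were the 4 with a striatal score above 6, whose part in this result was not tested. Kcne1l was lower in BALB/c, with a log2 difference of -1.04 under CRS (SE 0.26, limma adjusted p = 0.0299) and of -0.69 averaged (SE 0.18, adjusted p = 0.0205). The 11 genes had an averaged median of -0.10.

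Of 14 genes that cluster Kv channels on axons and elsewhere, all were tested and 3 were called, all lower in BALB/c averaged over treatments (21.4%, close to the 18.4% of all genes), with a median over the list of -0.13 beside -0.08 over all genes. Lgi3, a secreted partner of axonal Kcna channels, averaged 58.6 ± 9.84 TPM in the B6 controls, 53.5 ± 8.86 in B6 CRS, 30.2 ± 1.61 in the BALB/c controls and 30.0 ± 4.17 in BALB/c CRS (SD, n = 3), and the strains did not overlap. Its log2 difference was -0.92 in controls (limma adjusted p = 0.00299), -0.81 under CRS (adjusted p = 0.00708) and -0.87 averaged (adjusted p = 0.000175). Epb41l3, a membrane scaffold, had an averaged difference of -0.46 (adjusted p = 0.0086), and Cntn2, an adhesion protein beside the nodes, of -0.77 (adjusted p = 0.0137), both by limma. The myelin scores given above moved the same way and their part in these 3 was not tested. No gene of either list was called by limma in a CRS contrast or in the interaction, where 1 auxiliary subunit had an unadjusted p under 0.05 averaged over strains.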

How the data were processed

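RNA from 12 mouse prefrontal punches, 1 library per animal, was sequenced as stranded poly(A) libraries with paired 150 bp reads to about 6 Gb each, per the labels' protocols. The submitters' processing notes name cutadapt 2.9, Salmon and GRCm38, and the annotation and strand setting are not given in the sources used here. The authors deposited TPM values for 147902 transcript-level entries, and each library summed to 1000000. Mitochondrially encoded genes held 17.4% to 23.9% of it.

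TPM were summed by gene name (133 entries for the 40 Kv genes). The 16423 genes that reached 1 TPM in 3 or more libraries were fitted on log2(TPM + 1) in limma 3.58.1 under R 4.3.3, with 4 group means, 8 residual degrees of freedom, a mean-variance trend and Benjamini-Hochberg adjustment over all tested genes at 0.05. This scale understates the change of low genes. TPM keeps no depth, so no counting error can be given. The fit was tested on simulated data. Groups and animal numbers came from the sample titles.

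The Kv genes, gene lists, markers and tests were chosen with earlier results of these data known. Values in every library are given for Kv genes called in any contrast, the most abundant gene of a subfamily, and the 2 of lowest p in each direction of each CRS and interaction contrast; Kcna2 and Kcnh7 were added after their values were seen. Counts, sums and medians cover all Kv genes of the rule; 4 of them are not reported here by name, and the plots leave them out. Alternatives were other scalings, filters, pseudocounts, sample sets, marker covariates, a replicate block and leaving out each library. Positions came from GENCODE M21 and start regions from RefSeq.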

Additional observations from a re-analysis of the deposited data

How the results depend on the processing

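Among the alternatives, up to 22 per contrast, no Kv gene was called in any CRS contrast or in the interaction. Counts of called Kv genes in the strain contrasts moved more. Averaged over treatments (2 Kv genes, beside 18.4% of all genes), the count was 5 with median-of-ratios scaling (19.5% of all genes), adding Kcnd1, Kcnh3 and Kcnh7, all higher in BALB/c. It was 4 with TPM rescaled without mitochondrial genes, Bc1 and ribosomal RNA (18.1%), adding Kcnh3 and Kcnh7. With a mean of at least 5 TPM, which removes Kcna5 at a mean of 4.26 TPM, it was 1 (17.2%). It was 0 with the myelin score (2.24%), 0 with the striatal score (3.23%), and 2 to 7 when 1 library was left out (12% to 23.1%). With either score, calls over all genes fell as well. Without a filter on low values Kcna10 was called too, at levels of 0 to 0.126 TPM. Under CRS (1 Kv gene, beside 7.7% of all genes), the count was 0 with a mean of at least 5 TPM (6.27%), 0 with the myelin score (1.53%) and 0 with the striatal score (1.46%). It was 3 with only the compared groups (Kcna5, Kcnc2 and Kcnh7, beside 8.76%) and 0 to 2 when 1 library was left out (3.28% to 11.1%). In controls (0 Kv genes, beside 4.73%) it was 0 to 2 when 1 library was left out (2.59% to 8.39%). Without a filter Kcna5 missed the threshold under CRS (limma adjusted p = 0.0570, over 30737 genes), and Kcna10 was called instead. Apart from the mean filter, which removes Kcna5 by its own construction, the cause was not tested.

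Adjusted p over the alternatives ran from 0.00107 to 0.732 for Kcna5 under CRS, from 0.0119 to 0.824 for Kcna1 averaged and from 0.00156 to 0.794 for Kcna5 averaged, all by limma. Signs of uncalled differences turned in a few settings, and the cause was not tested. Kcna5 in controls was 0.032 with the striatal score. Kcna5 in the BALB/c CRS contrast was 0.022 with the myelin score, 0.10 with the striatal score and -0.24 to 0.11 with 1 library left out. With 1 library left out, Kcna1 ran from -0.17 to 0.0052 in the B6 CRS contrast, from -0.39 to 0.023 in the BALB/c CRS contrast and from -0.29 to 0.12 in the interaction.

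A replicate block on the animal numbers that groups share (9 in controls, 12 and 13 under CRS) left the counts at 0 in controls, 1 under CRS, 2 averaged and 0 in the CRS contrasts and the interaction. Of all genes, the block fit called 3.44% in controls, 4.57% under CRS and 14.9% averaged. The numbers name different animals of different strains, and same-numbered libraries did not deviate together (correlations -0.242, -0.029 and -0.036). Under the block the Kcna1 CRS difference was 0.20 in B6, 0.070 in BALB/c and 0.13 averaged over strains.

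Over all genes, 2356 of the 3021 calls averaged over treatments were lower in BALB/c, and 1724 of 3198 with median-of-ratios scaling; for controls it was 553 of 777 and 395 of 730, and under CRS 875 of 1264 and 754 of 1410.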

Other observations

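Of 40 listed potassium channels outside the voltage-gated families (inward rectifier, tandem-pore and calcium-activated channels and their subunits), 29 were tested, and 6 were called averaged over treatments (20.7%, close to the 18.4% of all genes), 4 lower and 2 higher in BALB/c, with a median over the 29 of 0.10. None was called by limma in a CRS contrast or in the interaction, where 2, 0 and 1 had an unadjusted p under 0.05 in B6, in BALB/c and averaged over strains.

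Kcnj10, the inward rectifier with which astrocytes take up potassium, averaged 47.8 ± 6.12 TPM in the B6 controls, 48.3 ± 2.10 in B6 CRS, 71.7 ± 2.82 in the BALB/c controls and 70.9 ± 7.32 in BALB/c CRS (SD, n = 3). It was higher in all 6 BALB/c libraries, with a log2 difference of 0.56 averaged over treatments (SE 0.08, limma adjusted p = 0.000571). The astrocyte markers Gfap, Aqp4, Aldh1l1, Slc1a3 and Gja1 were all below 0 in that contrast, with a median of -0.44. The tandem-pore channel Kcnk1 averaged 53.3 ± 10.3, 48.4 ± 6.63, 33.3 ± 2.49 and 27.0 ± 2.52 TPM in the same order and was lower in all 6 BALB/c libraries, at -0.73 (SE 0.10, limma adjusted p = 0.000522). Kcnk2, a mechanically gated leak channel, was also lower in all 6, at -0.58 (SE 0.11, limma adjusted p = 0.0040). Kcnk13 was lower at -0.82, Kcnmb1 lower at -0.60 and Kcnk4 higher at 0.90 (limma adjusted p = 0.0142, 0.0434 and 0.0258), and the strains overlapped for these 3. Kcnmb1 was near the floor, at 0.128 to 1.65 TPM in B6 and 0.119 to 0.44 TPM in BALB/c. Only B6 control 2, B6 CRS 12 and B6 CRS 13 reached 1 TPM. It thus passed the filter only through the strain where it was higher, so its call is not taken as support for a strain difference. The counts of called channels above include it.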
